A study of Homo sapiens with 8 samples.

Results

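bktRNA4 is a 127 nt RNA, 1 of 14 RNAs with a deposited structure-probing profile, and its nucleotides make up 127 of the 1279 listed. Its nucleotides were taken by the name of the RNA in the reactivity file, and the RNA itself was chosen with earlier results of these data known. On hg38 it lies on chromosome 17 at chr17:57317170-57317296, plus strand. That is within the span of MSI2 (chromosome 17, 57255851 to 57701581), which encodes an RNA-binding protein and whose listed start sites are also on the plus strand. The RNA begins 61319 nt from the start of the MSI2 span, 13.8% of the way along its 445731 nt. Whether this place is exonic or intronic was not analysed here.

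The profile comes from HEK293T cells, an established human embryonic kidney line, that stably overexpressed FLAG-tagged SNU13, named by its size (15.5K) in the labels. RNA bound to the tagged protein was pulled down with an anti-FLAG antibody and treated on the beads with NAI-N3, a SHAPE reagent that marks flexible nucleotides, in 4 libraries, or with its solvent DMSO in 4 control libraries. All 8 libraries came from this overexpressing line, so the profile describes RNA bound by, or next to, an overexpressed tagged protein. The deposited table combines the libraries into 1 score for each nucleotide, on an unstated scale, and a higher score stands for a more reactive nucleotide. There was no value per library to work with, the depth behind a score is unknown, and the spread between libraries could not be measured. The errors below are therefore standard deviations (SD) over nucleotides, and no comparison carries a test.

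A kink-turn is a short motif in which an internal loop with tandem sheared G and A pairs bends an RNA helix sharply. SNU13 recognises it in box C/D small nucleolar RNAs and in the U4 spliceosomal RNA. In box C/D RNAs the motif forms when box C, near the 5' end, meets box D, near the 3' end. The prefix bkt is taken here to stand for a backward kink-turn, in which box D comes first. SHAPE reagents acylate the 2'-hydroxyl of nucleotides that are free to move, so nucleotides held in base pairs or in tight protein contacts tend to score low.

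The whole RNA is shown first because its ends carry the boxes. The capitals mark box D (nt 4 to 7) and box C (nt 120 to 126), both exact matches to CUGA and RUGAUGA, where R is A or G.
bktRNA4: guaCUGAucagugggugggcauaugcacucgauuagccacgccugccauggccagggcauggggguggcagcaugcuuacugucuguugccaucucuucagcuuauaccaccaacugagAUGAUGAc
The pieces below carry the reactive nucleotides. The capitals mark the junction strand, the hairpin loops and the most reactive A of the internal loop of hairpin 1.
Junction strand, nt 26 to 36: cACUCGAUUAg
Hairpin 1, nt 36 to 58: gccacgccUGCCAUggccAgggc
Hairpin 2, nt 61 to 97: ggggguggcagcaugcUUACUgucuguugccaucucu

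Folding of the sequence alone placed bktRNA4 in a Y-shaped structure with a minimum free energy of -48.0 kcal/mol, and this prediction used no reactivity score. It holds 36 pairs (21 G-C, 10 A-U and 5 G-U) in 8 stems, numbered P1 to P8 from the 5' end. P1 to P4 stack into a closing helix that joins nt 8 to 26 with nt 101 to 118. Hairpin 1 (P5 and P6) and hairpin 2 (P7 and P8) branch from a junction of 14 unpaired nucleotides. Both boxes lie outside all stems, in the external region at the ends.

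Seen 5' to 3', the profile had 3 raised stretches and several raised nucleotides outside them. The stretches, runs of at least 5 nt above the file's median score of 0.00127, were nt 26 to 36 (mean 0.0212), nt 44 to 50 (0.0390) and nt 77 to 83 (0.0325). They cover the 9 nt junction strand, the loop of hairpin 1 and the loop of hairpin 2, each with up to 2 flanking stem nucleotides. Outside them stood the second highest nucleotide of the RNA, nt 54 (0.117), and lower peaks at nt 60 (0.0307), nt 98 (0.0233) and nt 39 (0.0213). The mean over the whole RNA was 0.00875 ± 0.0207 (SD over 127 nt) and the median 0.00130. Of the 127 scores, 76 lay above 0, 28 below 0 and 23 at exactly 0 (18.1%, 95% Wilson interval from 12.4 to 25.7, with nucleotides taken as independent). The zeros were clustered by region, as given below, and the interval measures no spread between libraries.

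**Figure D1:**
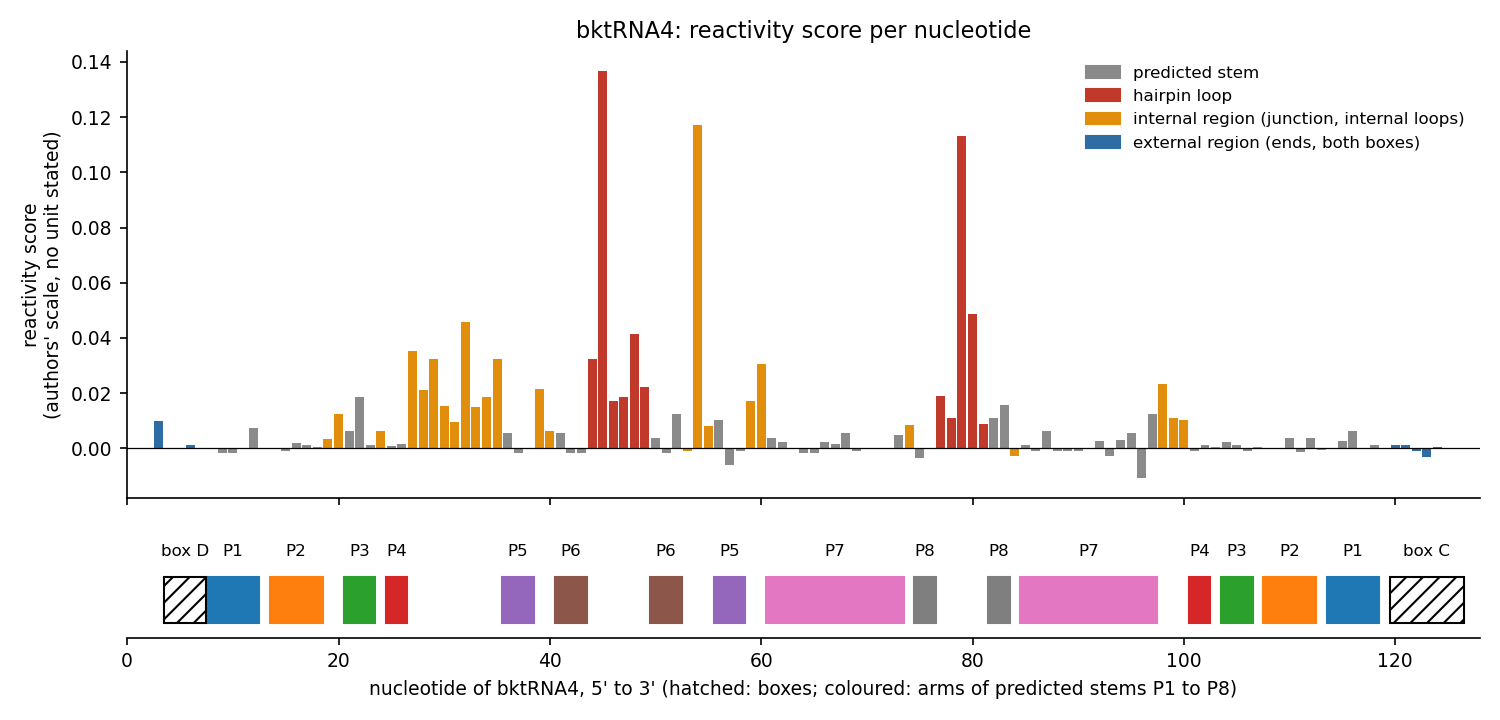
Reactivity score (vertical axis, no unit stated) at each nucleotide of bktRNA4 (horizontal axis, 5' to 3'), coloured by predicted region, with the arms of stems P1 to P8 and the 2 boxes drawn below. The 3 tallest bars are at nt 45 (0.137), nt 54 (0.117) and nt 79 (0.113), and both boxes stay near 0.

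The loop of hairpin 1 reads UGCCAU and was reactive at every nucleotide. From nt 44 to nt 49 its scores were 0.0325, 0.137, 0.0172, 0.0187, 0.0416 and 0.0223, with a mean of 0.0448 ± 0.0459 (SD over 6 nt). The G at nt 45 was the highest score of the RNA and the highest in any of the 24 predicted hairpin loops of the file. The A at nt 48 came next within the loop.

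The loop of hairpin 2, UUACU, had its peak in the middle. From nt 77 to nt 81 the scores were 0.0192, 0.0110, 0.113, 0.0486 and 0.00870, with a mean of 0.0401 ± 0.0438 (SD over 5 nt). The A at nt 79 was the third highest nucleotide of the RNA, and the C at nt 80 followed it. By mean score, the 2 loops ranked 3 and 4 among the 24 loops, behind those of bktRNA16 (0.0634) and bktRNA17 (0.0587). Their means differed from each other by far less than the SD within either loop. Without the peak of each loop, the remaining 9 loop nucleotides still averaged 0.0244 ± 0.0136 (SD).

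Hairpin 1 had a second peak beside its loop, in the internal loop between P5 and P6. The A at nt 54 reached 0.117. Its neighbours C at nt 53 and G at nt 55 stood at -0.000890 and 0.00830, so the signal was held by 1 nucleotide. Across from it, the A at nt 39 reached 0.0213. This A at nt 54, with the peaks of the 2 hairpin loops, made up the 3 nucleotides above 0.05, and together they held 31.5% of the summed positive score of the RNA.

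The junction was evenly reactive, unlike the peaked loops. All 14 of its nucleotides lay above 0 and 13 lay above 0.01, with a mean of 0.0227 ± 0.0110 (SD). From nt 27 to nt 35 the scores of ACUCGAUUA were 0.0354, 0.0213, 0.0324, 0.0153, 0.00942, 0.0456, 0.0151, 0.0187 and 0.0326. The A nucleotides at nt 27, 32 and 35 were the 3 highest of this strand, and the G at nt 31 was the lowest. The short strand between the hairpins, nt 59 and 60, scored 0.0170 and 0.0307. The strand from hairpin 2 back to the closing helix, nt 98 to 100, scored 0.0233, 0.0111 and 0.0102, so all 3 strands of the junction were raised.

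**Figure D2:**
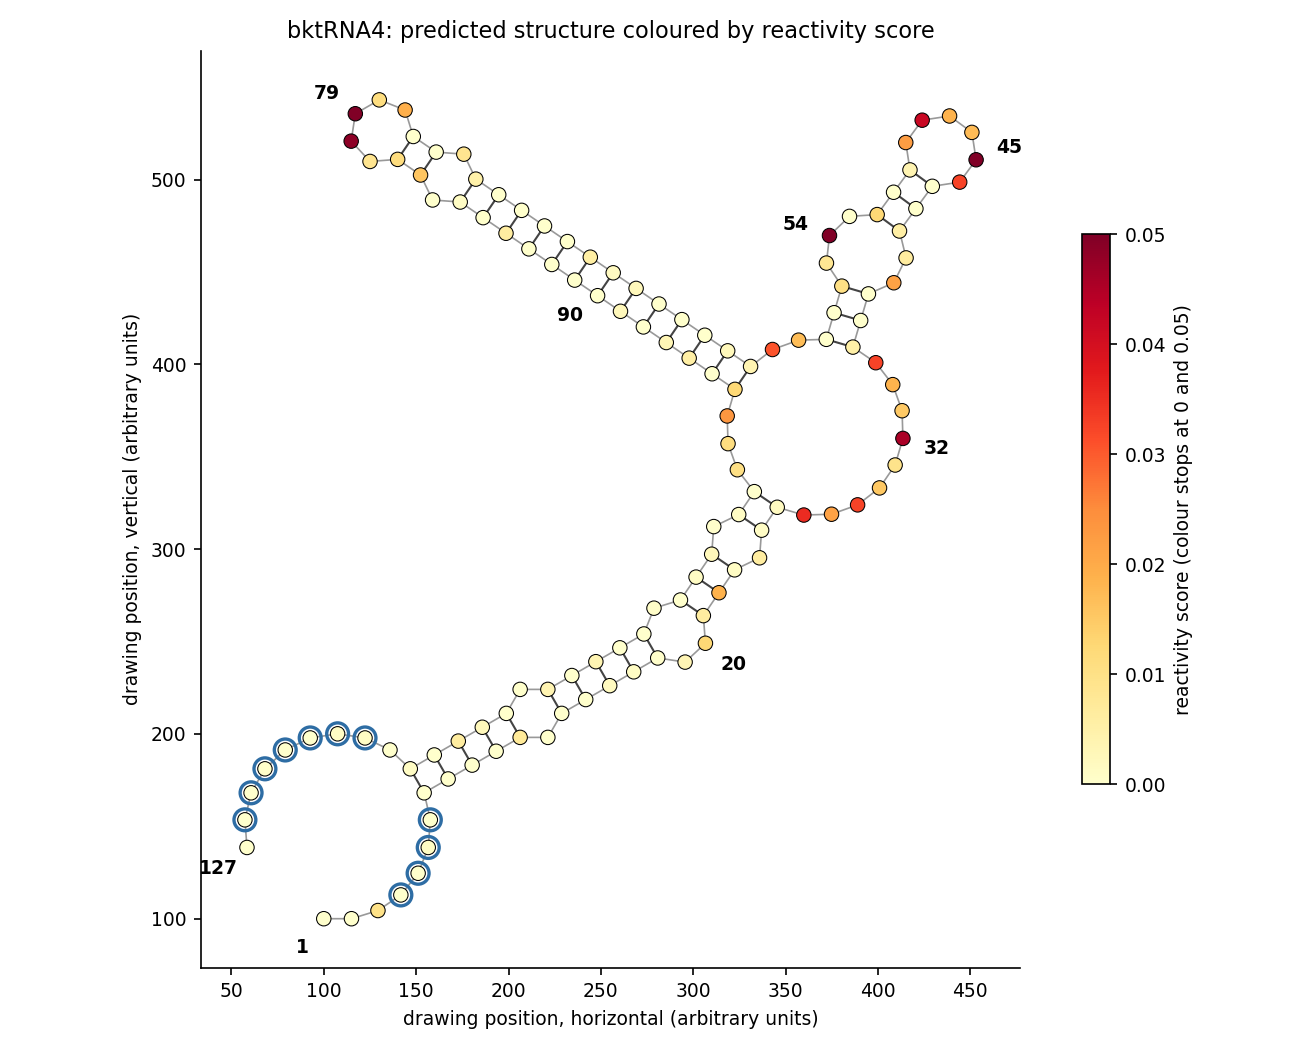
Predicted minimum free energy structure of bktRNA4 (axes in arbitrary drawing units), with each nucleotide coloured by its reactivity score and the boxes ringed in blue. Colour stops at 0 and 0.05, short dark lines are predicted pairs and numbers give nucleotides. Strong colour lies in the junction around nt 32, in both hairpin loops (nt 45 and nt 79) and at nt 54, while most of the closing helix and the ringed boxes are pale.

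Stems were low on average, with 6 of 72 nucleotides above 0.01. The 72 paired nucleotides averaged 0.00184 ± 0.00466 (SD), with a median of 0.000169, and 36 of them scored at or below 0. By stem, means ran from 0.000757 in P4 and 0.000869 in P2 to 0.00487 in P3 and 0.00582 in P8. P7, the 13-pair stem of hairpin 2, averaged 0.00117 ± 0.00413 (SD over 26 nt). It also held the most negative score of the RNA, -0.0107 at the C of nt 96. The size of that score can serve as a yardstick, and 30 nucleotides of bktRNA4 exceeded it. They were 10 of 11 hairpin loop nucleotides, 12 of 14 junction nucleotides, 3 of the 14 in small internal loops and 5 of 72 in stems.

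The 5 stem nucleotides above that yardstick mostly sat at the edges of stems. They were the U at nt 22 in P3 (0.0188), the C at nt 52 in P6 (0.0126), the G at nt 82 (0.0112) and U at nt 83 (0.0157) in P8, and the U at nt 97 in P7 (0.0125). Of these, 4 belong to the last pair of a stem, and nt 22 is the middle pair of the short P3. Over the whole RNA, the 32 nucleotides in pairs at the end of a stem averaged 0.00331 ± 0.00475 (SD), and the 40 in inner pairs 0.000672 ± 0.00429. By type of pair, nucleotides averaged 0.000924 in G-C pairs (42 nt), 0.00291 in A-U pairs (20 nt) and 0.00357 in G-U pairs (10 nt). These differences are smaller than the SD within each class.

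P8 was lopsided. Its 3' arm averaged 0.0134 and its 5' arm -0.00176 (2 nt each), and its pairs close the loop that peaks at nt 79. P3, the A-U stem in the middle of the closing helix, leaned the other way, with 0.00883 on its 5' arm and 0.000918 on its 3' arm (3 nt each). P3 was also the least firmly predicted stem, with pairing probabilities down to 0.697.

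The closing helix was low at most of its interruptions, and its highest scores were at the paired nt 22 (0.0188) and the unpaired nt 20 (0.0125). The G at nt 13 faces the A at nt 113, and they scored -0.000183 and -0.000556. The U at nt 24 and the U at nt 103, which face each other, scored 0.00622 and 0.000339. Where nt 19 and 20 face nt 107, the G and C scored 0.00350 and 0.0125 and the A 0.000660. The 7 unpaired nucleotides inside the helix averaged 0.00322 ± 0.00477 (SD), near its 30 paired ones at 0.00183 ± 0.00396. In hairpin 2, the U at nt 74 and the C at nt 84, which also face each other, scored 0.00862 and -0.00265. The small internal loops thus ranged from scores below 0 to the 0.117 of nt 54, and without nt 54 they averaged 0.00490 ± 0.00674 (SD over 13 nt).

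**Figure D3:**
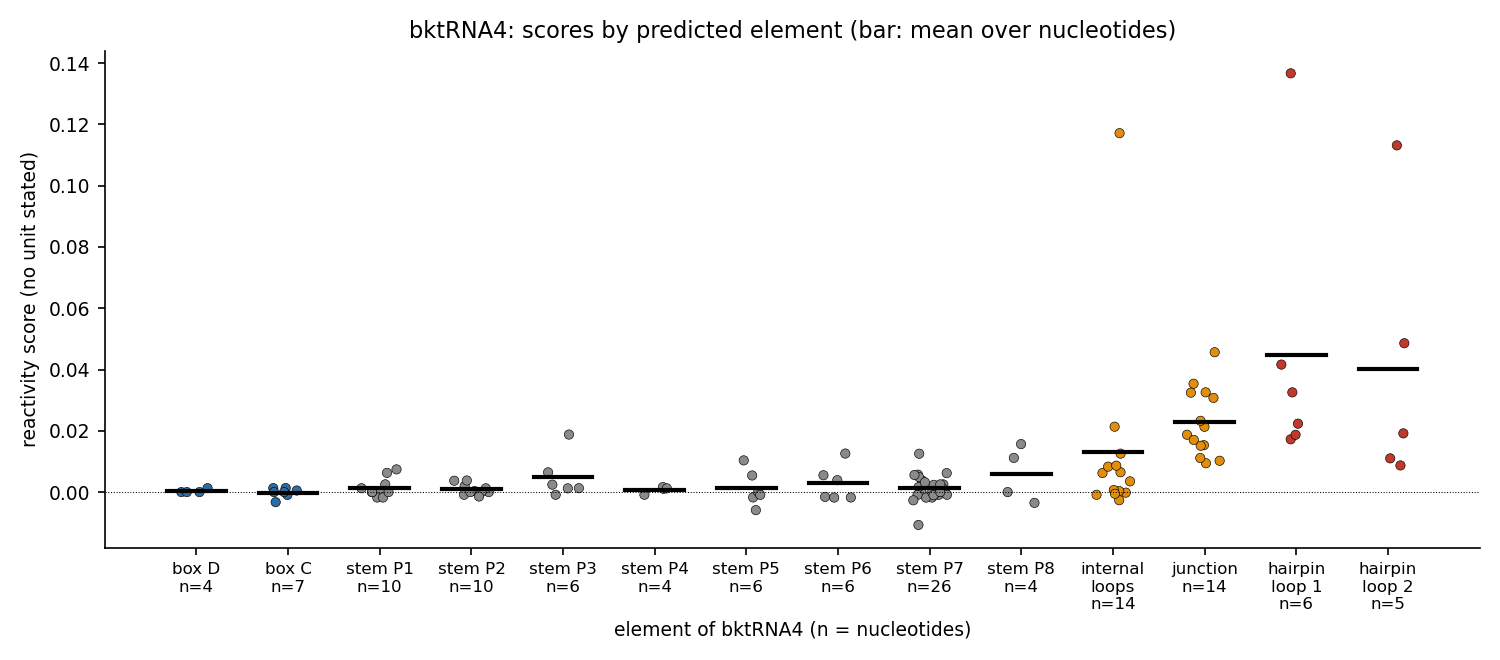
Reactivity score (vertical axis, no unit stated) of every nucleotide in the boxes, stems P1 to P8, internal loops, junction and 2 hairpin loops of bktRNA4. Points are nucleotides, horizontal bars are means over them, and n is their number. All 14 junction points lie above 0, whereas the 11 box points lie between -0.00328 and 0.00133.

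The boxes, where SNU13 would bind, were as low as stems although predicted to be unpaired. In box D (CUGA, nt 4 to 7) the C, U and A were listed at 0 and the G scored 0.00128, a mean of 0.000320 ± 0.000640 (SD over 4 nt). In box C (AUGAUGA, nt 120 to 126) the scores were 0.00130, 0.00133, -0.000945, -0.00328, 0.000516, 0 and 0, a mean of -0.000155 ± 0.00159 (SD over 7 nt). No box nucleotide scored above 0.00133. An exact 0 can also be a nucleotide without an estimate, and the first 2 and last 2 nt, of which the last A of box C is 1, were at 0. Zeros were common in the external region, with 9 of 16 nt, against 14 of 72 in stems and 0 of 39 in loops, junction and internal loops. Of the 5 external nucleotides outside the boxes, 4 were at 0, so low scores at the ends were not particular to the boxes. The A at nt 3, directly before box D, reached 0.00977, the only end nucleotide above 0.005.

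Relative to the rest of the RNA, box C lay lower by a mean difference of -0.00943 and box D by -0.00871. The box C difference was the most negative of the 14 RNAs, next to bktRNA1 at -0.00822, and the box D difference ranked 3 from the most negative of 13. The mean of bktRNA4 as a whole ranked 3 from the highest of the 14, and box C means lay between -0.000155 and 0.00350 in all of them. Of the 13 RNAs with a box D, bktRNA4 alone had all 11 box nucleotides predicted unpaired, and the others had at most 9. Its low box scores lie at nucleotides with no predicted pair, in a folding that did not model kink-turns. Pairing probabilities within the boxes reached 0.384 at nt 4 and 0.381 at nt 122.

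The ends of bktRNA4 frame the closing helix tightly. P1 starts at nt 8, directly after box D, and its 3' arm ends at nt 118, leaving 1 unpaired G before box C. The capitals below mark the boxes. The last 5 nt of the first sequence and the first 5 nt of the second are the arms of P1.
5' end, nt 1 to 12: guaCUGAucagu
3' end, nt 114 to 127: acugagAUGAUGAc
The same predicted closing pair, between the nucleotide after box D and the nucleotide 2 before the start of box C, was found in 10 of the 13 RNAs with a box D, bktRNA4 among them. P1 averaged 0.00139 ± 0.00314 (SD over 10 nt). Protected stretches, runs of at least 5 nt at or under the file's median score, were nt 7 to 11, nt 105 to 109 and nt 122 to 127. By this rule they lie at the boxes and in the closing helix. With a bound of 0.005 in place of the median, runs also lay in P7, at nt 61 to 67, nt 69 to 73 and nt 88 to 94. The median falls inside a narrow band of 9 scores between 0.00122 and 0.00133, so very small differences set where these runs end.

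The letters CUGA also occur at nt 115 to 118, in the 3' arm of P1. This copy averaged 0.00251, and the copy that is box D 0.000320. The letters GCCA occur 4 times in bktRNA4, a set singled out after its values were seen. In the loop of hairpin 1 (nt 45 to 48) they averaged 0.0535, and at nt 51 to 54, where the last 2 are unpaired, 0.0318. The mean at nt 51 to 54 rests largely on the A at nt 54 (0.117), since the unpaired C at nt 53 scored -0.000890. At nt 36 to 39, where the first 3 are paired, the mean was 0.00625. In the middle of P7 (nt 89 to 92), with all 4 paired, it was 0.000153. The same 4 letters thus covered the range from the strongest loop to a stem near 0 within a single RNA.

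Stretches shared with other RNAs were compared in the same way, and were likewise singled out after their values were seen. The longest was 9 nt with bktRNA28, and bktRNA2 and bktRNA105 shared 8 nt each. Of the stretches of 7 nt, only the one shared with bktRNA29 and bktRNA385 is shown. Those shared with bktRNA17, bktRNA21, bktRNA23, bktRNA43 and bktRNA133 are left out, and those with bktRNA17, bktRNA23 and bktRNA43 overlap box C. The stretches below are printed because they set identical letters side by side, mostly in different predicted pairing. GGGUGGCAG, by contrast, is paired almost alike in both RNAs.
bktRNA4 nt 24 to 30, bktRNA29 and bktRNA385 nt 34 to 40: UGCACUC
bktRNA4 nt 49 to 56, bktRNA105 nt 10 to 17: UGGCCAGG
bktRNA4 nt 63 to 71, bktRNA28 nt 26 to 34: GGGUGGCAG
bktRNA4 nt 115 to 122, bktRNA2 nt 21 to 28: CUGAGAUG

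In UGCACUC predicted pairing turned over, and most scores with it. Its letters at positions 2 and 3 close the helix at P4 in bktRNA4 and are unpaired in bktRNA385 and bktRNA29, while its last 4 letters are junction in bktRNA4 and stem in the other pair. The second letter, a G, scored 0.00106 in bktRNA4, 0.0132 in bktRNA385 and -0.000130 in bktRNA29, so in bktRNA29 it was no higher unpaired than in the stem of bktRNA4. The third letter, a C, scored 0.00163 in bktRNA4, 0.130 in bktRNA385 and 0.0684 in bktRNA29. Over the last 4 letters, the scores were 0.0354, 0.0213, 0.0324 and 0.0153 in bktRNA4. In bktRNA385 they were 0.0132, 0.0130, -0.00586 and -0.0107, and in bktRNA29 0.0130, 0.00619, 0.00310 and -0.0168, lower than in bktRNA4 at each position. The most negative scores of these RNAs were -0.0217 in bktRNA385 and -0.0168 in bktRNA29. Some of the gaps are smaller than the size of those scores, as at position 5 (0.0213 against 0.0130 and 0.00619). bktRNA29 and bktRNA385 are nearly identical copies, so they are not independent of each other.

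In UGGCCAGG, the A that peaked at nt 54 of bktRNA4 (0.117) was listed at 0 in bktRNA105, where it is predicted to be paired. Predicted pairing also differed at positions 2, 3, 5 and 7, with mixed scores. Positions 2 and 3, paired only in bktRNA4, scored 0.00389 and -0.00157 there and 0.00344 and 0 in bktRNA105. Positions 5 and 7, paired only in bktRNA105, scored -0.000890 and 0.00830 in bktRNA4 and 0 and -0.00341 in bktRNA105. The 8 nt averaged 0.0215 in bktRNA4, a mean that rests largely on nt 54, and 0.00157 in bktRNA105. The predicted frequency of the minimum free energy structure of bktRNA105 was 0.113%, the lowest of the file, so its pairing is uncertain. In GGGUGGCAG, which is paired at all 9 positions in bktRNA4 and at 8 in bktRNA28, both RNAs were low, with means of 0.000578 and 0.00110.

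CUGAGAUG, which spans the end of P1 and the start of box C, went against predicted pairing at some positions and with it at others. The G at nt 119 and the A at nt 120 are unpaired in bktRNA4 and scored 0 and 0.00130. In bktRNA2 the same letters are in a stem and scored higher, at 0.00368 and 0.00546. The first letter of the stretch, a C, is in P1 of bktRNA4 at 0.00252 and in a hairpin loop of bktRNA2 at 0.0249. The A at position 4 is in P1 of bktRNA4 at 0.00125 and unpaired in bktRNA2 at 0.0062. Over the 8 nt the means were 0.00147 in bktRNA4, with 4 paired, and 0.00565 in bktRNA2, with 5 paired.

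**Figure D4:**
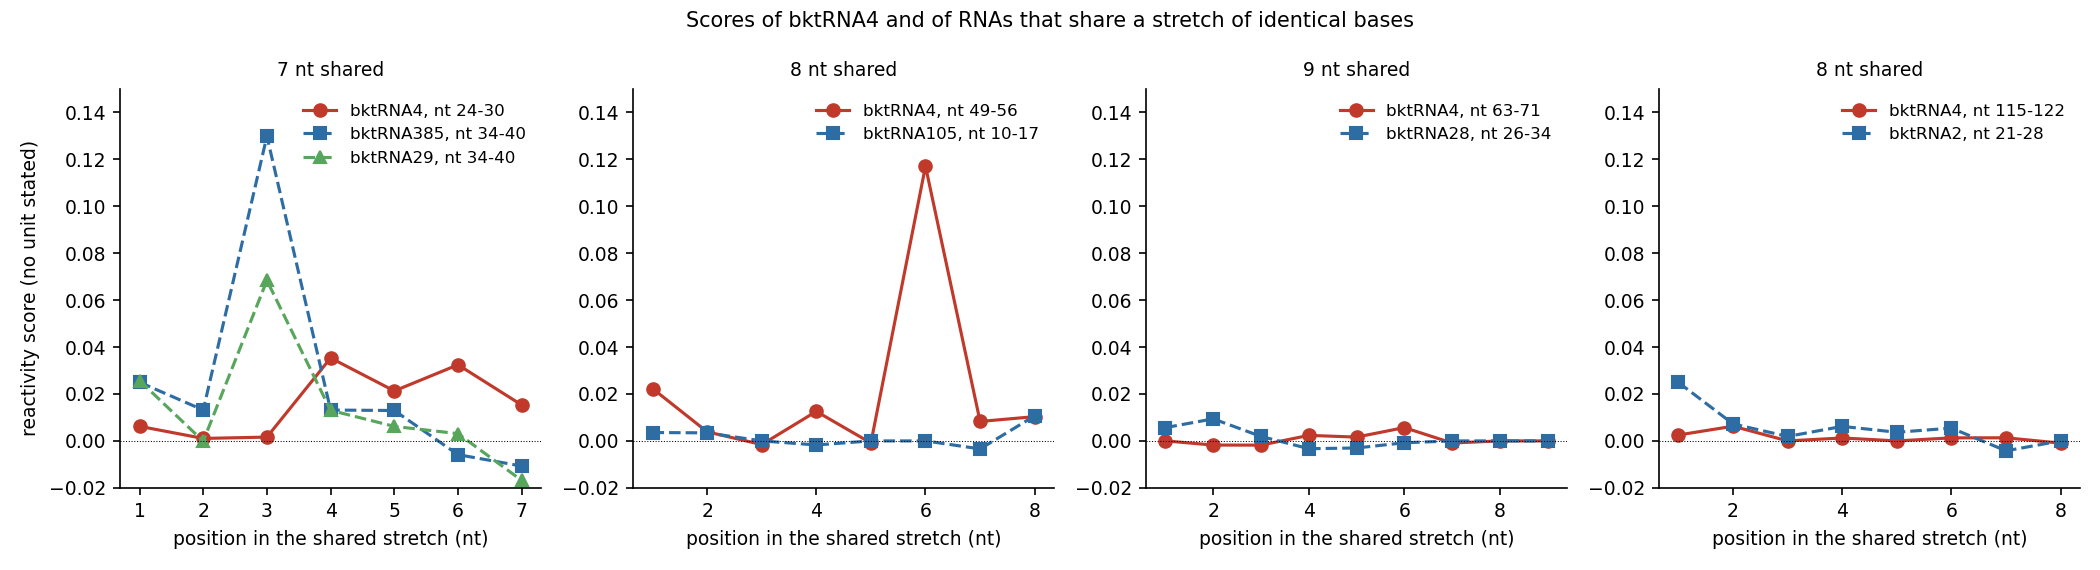
Reactivity score (vertical axis, no unit stated) along 4 stretches of identical bases (horizontal axis, position in the stretch) in bktRNA4 and in the RNAs that share them. In the 7 nt stretch the third position is 0.00163 in bktRNA4 and 0.130 in bktRNA385, in the 8 nt stretch shared with bktRNA105 the sixth is 0.117 in bktRNA4 and 0 in bktRNA105, in the 9 nt stretch both RNAs are low, and in the 8 nt stretch shared with bktRNA2 the first is 0.00252 in bktRNA4 and 0.0249 in bktRNA2.

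By base, A stood out where it was unpaired inside the structure. The 11 A in loops, the junction and internal loops averaged 0.0395 ± 0.0404 (SD), against 0.0315 ± 0.0589 for 5 G, 0.0176 ± 0.0105 for 13 U and 0.0148 ± 0.0143 for 10 C. The G mean rests on nt 45, since the median of those 5 G was 0.00830. In stems, U averaged 0.00506 ± 0.00632 (15 nt) and the other bases between 0.000143 (C) and 0.00196 (A). In both settings the bases differed by less than the SD of the highest base.

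Paired and unpaired nucleotides separated more in bktRNA4 than in most RNAs of the file. Unpaired nucleotides averaged 0.0159 more than paired ones, second after bktRNA16 (0.0258) and ahead of bktRNA17 (0.0109). The area under the ROC curve (AUC), the share of unpaired and paired nucleotides set against each other in which the unpaired one scored higher, with 0.5 for no separation, was 0.743 in both bktRNA4 and bktRNA16. With the external region left out, it was 0.865 in bktRNA4, 0.854 in bktRNA16 and 0.760 in bktRNA17, against a median of 0.633 over the other 13 RNAs and a lowest value of 0.502 in bktRNA21. The order of bktRNA4 and bktRNA16 rests on a small gap and was not tested. Scores listed at 0 tie with each other in the AUC, and RNAs differed in their share of them. Zeros made up 18.1% of bktRNA4, 6.67% of bktRNA16 and 13.6% of bktRNA17, against a median of 37.0% over the other 13 RNAs. In bktRNA1, with 1.59% zeros, the AUC over all unpaired nucleotides was 0.689. Whether the share of zeros bears on the order of the RNAs was not tested.

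By mean score, the separation came from both sides. The paired mean of 0.00184 ranked 4 from the lowest of the 14 RNAs, and the internal regions had the highest mean, 0.0178, next to 0.0177 in bktRNA16. The paired median was not low, since 0.000169 ranked 7 from the highest, against a median of 0 over the other RNAs. Scores listed at 0 were more common in most of those RNAs. Of the 39 unpaired nucleotides inside the structure, 26 scored above 0.01 (66.7%), and of the 72 paired ones 6 (8.33%). In the other RNAs the median shares were 33.8% and 13.6%. In the external region bktRNA4 had 0 of 16 nt above 0.01. Its external mean of 0.000623 ranked 9 from the highest of the 14 RNAs, below a median of 0.00150 in the others, which ranged from -0.000770 in bktRNA21 to 0.0132 in bktRNA105.

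**Figure D5:**
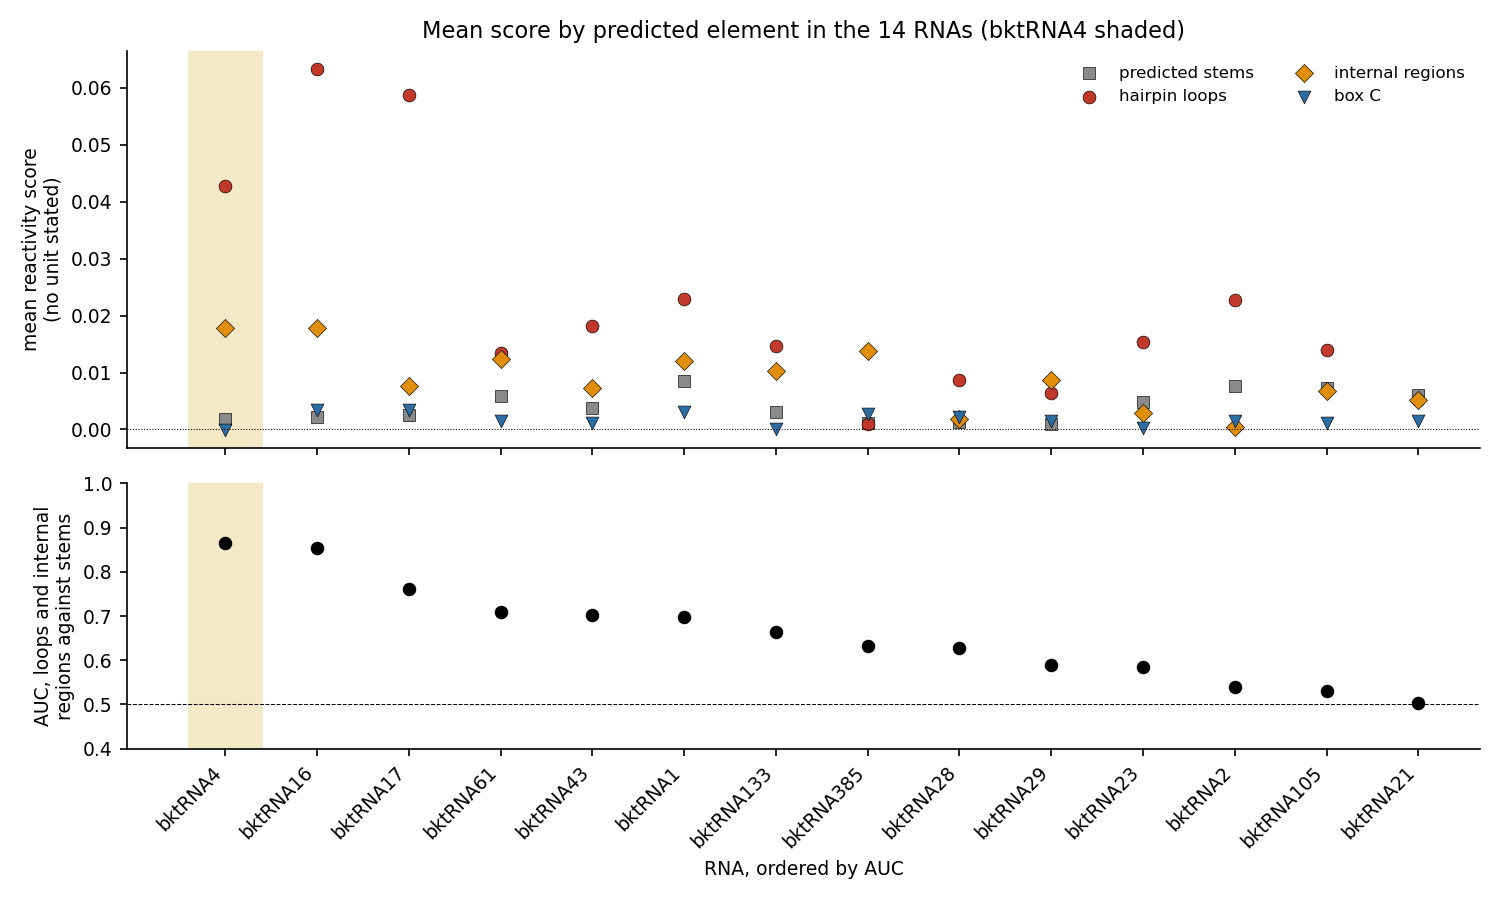
Upper panel, mean reactivity score (vertical axis, no unit stated) of predicted stems, hairpin loops, internal regions and box C in each of the 14 RNAs. Lower panel, AUC of loops and internal regions against stems, with a dashed line at 0.5. RNAs are ordered by AUC, and bktRNA4 (shaded) has the highest, 0.865, and bktRNA21 the lowest, 0.502.

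By ensemble diversity per nt, the predicted structure of bktRNA4 was also the best defined. Without division by length, its diversity ranked 6 from the lowest of the 14 RNAs. The predicted frequency of its minimum free energy structure was 12.2%, against a median of 13.1% over the others. Its ensemble diversity, the mean number of pairs by which alternative structures differ, was 7.74, or 0.0609 per nt, the lowest of the 14 RNAs (next was bktRNA23 with 0.0768, and the highest bktRNA133 with 0.415). The centroid and maximum expected accuracy structures equalled the minimum free energy structure, as they did in 7 of the 14 RNAs, bktRNA4 included. Across the 127 nt, score and predicted pairing probability had a Spearman rho of -0.495, the most negative of the 14 RNAs. Neighbouring nucleotides share stems, reads and base composition, and the RNAs differ in their share of zeros, so this is a description.

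The RNAs with the most similar pattern over 5 elements were bktRNA28, bktRNA23 and bktRNA16, out of 12 that could be compared. Likeness was the Euclidean distance between the means of box D, box C, stems, hairpin loops and other unpaired nucleotides, each divided by the mean of its RNA, and it was 1.46, 2.09 and 2.18. In bktRNA4 the hairpin loops stood at 4.88 times the RNA's mean and the stems at 0.211 times. bktRNA28 had 4.51 and 0.636 times, although its own mean is the lowest of the file, and bktRNA16 had 7.02 and 0.238 times. In box C, bktRNA28 stood at 1.11 times its mean and bktRNA4 at -0.0177 times, so the nearest RNA differed from it at the box.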

How the data were processed

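Per the labels' protocols, RNA-protein complexes were pulled down, modified on the beads, ligated to adaptors at both ends, depleted of ribosomal RNA, spliceosomal RNA and some abundant snoRNAs, and reverse transcribed so that adducts read as mutations. Per the submitters' processing notes, cutadapt 3.4, STAR (no version named) and build hg38 were used, with no roles stated. The authors deposited a single reactivity score for each nucleotide. How the libraries were combined and how the DMSO signal entered are not given in the sources used here.

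Scores were read as deposited. Box D was sought in the first 20 nt (CUGA, at most 1 mismatch, GA at its end) and box C in the last 20 nt (RUGAUGA, at most 2 mismatches, UGA at positions 2 to 4). Structures were predicted with ViennaRNA 2.7.2 at 37 °C from sequence alone, ignoring protein and without modelling kink-turns. Python 3.11.15, NumPy 2.4.6 and SciPy 1.17.1 were used, and the functions were tested on simulated data. Gene spans came from RefSeq on GRCh38.p14. bktRNA4 and the rules were chosen with earlier results of these data known. Named were bktRNA4, its nucleotides above 0.05, the highest of each element, box nucleotides, protected stretches, the 3 RNAs of nearest pattern and neighbours or extremes in an order.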

Additional observations from a re-analysis of the deposited data

How the results depend on the processing

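Of 48 recomputed values, 36 moved by at most 1.5 times, 12 moved by more and 0 reversed. No paired analysis was possible because the deposited table holds a single combined profile, and no replicate could be left out for the same reason. Medians over nucleotides in place of means gave 0.00130 for the RNA, -0.00178 for box C minus the rest, -0.00163 for box D, 0.00925 for unpaired minus paired and 0.0175 for hairpin loops minus other unpaired nucleotides (0.0311 with means). The last of these was 0.0164 with scores capped at the file's 95th percentile (0.0393). Without the 3 highest nucleotides, a setting chosen after the data were seen, unpaired minus paired was 0.00992 and hairpin loops minus other unpaired 0.0153. The bound for peaks gave 11 nucleotides at 0.03 and 6 at that percentile, against 3 at 0.05. Protected stretches numbered 7 at a bound of 0.005 and 0 at a length of 8 nt, against 3. Centroid, maximum expected accuracy and box-constrained structures, and the Andronescu energy parameters (added after the data were seen), left the structure as it was, and folding at 25 °C changed 2 nt. Values under the settings that left the structure as it was equalled the main ones, as did those with unpaired set by a pairing probability under 0.5. They are counted among the 36 and say nothing about stability. The limits set by depth cannot be given, since the table holds no depth.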

Other observations

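The low scores of bktRNA4 fell in narrow bands. Of its 28 negative scores, 11 lay between -0.00102 and -0.000875 and 7 between -0.00180 and -0.00174. Of its 28 positive scores under 0.004, 9 lay between 0.00122 and 0.00133, 5 between 0.00236 and 0.00252 and 4 between 0.00370 and 0.00389. The bands were chosen after the values were seen. The depth behind them is unknown, and differences within or between such low scores, including those among box and stem nucleotides, are of the size of these steps.

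By 9 nt window, the highest mean lay at nt 44 to 52 (0.0315), from the loop of hairpin 1 into P6. The lowest lay at nt 88 to 96 (-0.000545), in the 3' arm of P7, followed by nt 119 to 127 (-0.000120), which holds box C. The 5' end up to the junction (nt 1 to 26) averaged 0.00265 ± 0.00486 (SD) and the 3' end after it (nt 101 to 127) 0.000687 ± 0.00187.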
